A study of Mus musculus with 4 samples.

Results

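The nuclear genes for the core subunits of respiratory complexes II, III, IV and V, with cytochrome c, were followed in the ventricles of mouse embryos that lack or keep Hif1a in heart muscle precursors. Members were taken by symbol, with no cut on their values, from a list chosen with earlier results of these data known. All 35 had a row among the 38293 genes of the deposited table. They were 4 for complex II, 9 for complex III, 1 for cytochrome c, 6 for complex IV and 15 for ATP synthase, which is complex V. Some subunits of complex IV that have tissue isoforms, such as Cox6a1, were left out of the list. RNA was measured in ventricles from individual embryos at E12.5 (days of embryonic development) in a C57BL/6 background, all from litter 6, after the atria and valve region had been removed. The knockout embryos (cKO, 2 libraries) had the genotype Hif1alpha flox/flox with Nkx2.5 Cre/+, and the controls (2 libraries) were littermates with Hif1alpha flox/flox and Nkx2.5 +/+. The floxed Hif1a allele was thus present on both chromosomes in both groups. Cre was driven from Nkx2-5, a transcription factor gene of cardiac precursors, and no group carried it without the floxed alleles, so effects of the Cre or of its insertion cannot be told apart from those of Hif1a loss. Replicates carried the numbers 2 and 3 in each group, each came from its own embryo, and the embryos were matched by their number of somites.

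Respiratory complexes sit in the inner mitochondrial membrane. Complex II oxidises succinate and is also an enzyme of the tricarboxylic acid cycle, complex III passes electrons on to cytochrome c, complex IV hands them to oxygen, and complex V makes ATP from the proton gradient that complexes III and IV help to build. HIF-1, of which Hif1a encodes the oxygen-regulated subunit, is known for turning on glycolytic genes and genes that limit the entry of pyruvate into mitochondria, and the early embryonic ventricle is known to rely heavily on glycolysis. The comparison asks whether transcripts of the oxidative machinery differ when that factor is removed.

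Total expected counts (estimated read counts that need not be whole) came to 9980051 for cKO replicate 2, 19801300 for cKO replicate 3, 8561687 for control replicate 2 and 8989184 for control replicate 3, and pairs of values below keep that order. Values below are CPM, the field's usual unit of counts relative to library size, here with TMM scaling of the library sizes, and every fold change is cKO over control. The deepest library, cKO replicate 3, was also the only male, with Xist at 2.11 CPM against 1754 to 2097 CPM in the others. Hif1a itself stood at 716 and 663 CPM in cKO and 530 and 552 CPM in control (log2 fold change 0.35 ± 0.09 SE, adjusted p = 0.317), and since the deposited value sums the gene's exons it cannot tell whether the floxed part was lost. Nkx2-5 stood at 44.3 and 42.1 CPM in cKO and 55.9 and 64.9 CPM in control. All 12 cardiomyocyte markers were detected and summed to between 41758 and 45528 CPM, so the labelled tissue carried its defining transcripts.

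None of the 34 members that passed the filter on low counts was called different between cKO and control. By edgeR's quasi-likelihood test with Benjamini-Hochberg adjustment the smallest adjusted p among them was 0.291, and over all 13711 genes tested 0.511% were called. DESeq2 and limma-voom also called 0 members. At an unadjusted p under 0.05 there were 6 members, all higher in cKO, against 3.39% of all genes in that direction and 3.58% in the other, namely Sdhb, Uqcr11, Cox6b1, Cox7c, Atp5g1 and Atp5k, with 11 in DESeq2 (1.14% of 21779 genes, for which no filter was set) and 9 in limma-voom (3.5% of all genes), all higher as well. The differences were small and mostly of the same sign: 33 of 34 log2 fold changes were positive, where 49.9% of all genes had a positive value, and they ran from -0.0019 for Atp5a1 to 0.39 for Cox7c with a median of 0.19. The median over all genes tested was -0.00031. Both cKO libraries stood above both controls for 20 of 34 members, against 19.4% of all genes, and for none did both stand below. The remaining member, Atp5g2, was listed at 0 and is described further on.

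Summed over the members, the 2 cKO libraries held 14647 and 14018 CPM and the controls 13491 and 12569 CPM, a ratio of group means of 1.1. Members took 1.41% to 1.45% of all counts in cKO and 1.27% to 1.33% in control. Neither pair overlapped the other, but in summed CPM the 2 controls differed from each other by more than the nearest cKO and control libraries did. In bulk ventricle, fewer cells of a type and less RNA per cell cannot be told apart. Control replicate 3 lay below control replicate 2 for 28 of 34 members, where 51.3% of all genes did so, with a median log2 difference of -0.20, close in size to the median difference between the groups. Without control replicate 3 the median log2 fold change of the members was 0.10, and without control replicate 2 it was 0.32, where the smallest adjusted p was 0.0518 and 23 members were higher at an unadjusted p under 0.05, against 6.84% of all genes in that fit. Without cKO replicate 2 it was 0.16, and without cKO replicate 3 it was 0.22.

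**Figure D1:**
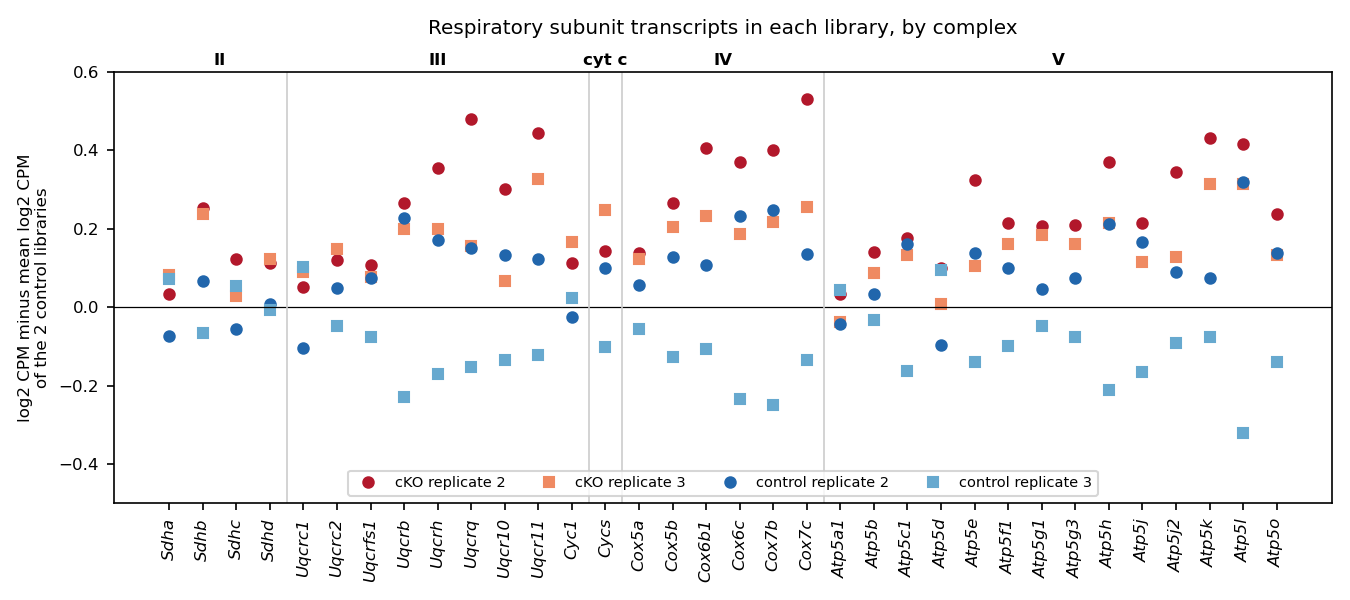
Each point is 1 library's log2 CPM for 1 member, minus the mean log2 CPM of the 2 control libraries, with members in columns and grouped by complex (Atp5g2, at 0 in all libraries, is left out). Most cKO points lie above 0, and control replicate 3 lies below control replicate 2 for 28 of 34 members.

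Complex II had a median log2 fold change of 0.096 over its 4 subunits, the smallest of the complexes with all 4 libraries but the largest, at 0.13, without control replicate 3. Sdha, the flavoprotein that binds succinate, stood at 597 and 617 CPM in cKO and at 555 and 613 CPM in control, so the groups overlapped (log2 fold change 0.056 ± 0.09 SE). Sdhb, the iron-sulphur subunit, stood at 269 and 266 CPM in cKO and at 236 and 216 CPM in control. It did not overlap between groups and had the smallest p of the complex (0.24 ± 0.083, adjusted p = 0.582). For Sdhc, a membrane anchor that holds the haem, the values were 198 and 186 CPM against 175 and 189 CPM, which overlap. For Sdhd, the other anchor, they were 286 and 287 CPM against 265 and 263 CPM, which do not. Summed, the complex held 1350 and 1357 CPM in cKO and 1232 and 1281 CPM in control.

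Complex III had a median log2 fold change of 0.18 over 9 subunits, and its small accessory subunits had larger values than its core and redox subunits with all 4 libraries. That order did not hold without control replicate 3, where Uqcrb stood at 0.005 and Uqcr10 at 0.052 against 0.17 for both Cyc1 and Uqcrc1, or with the trend on transcript length removed, described further on, where Uqcr10 stood at -0.03 and Uqcrc2 at 0.10. Of the redox subunits, Cyc1, which is cytochrome c1, stood at 280 and 290 CPM in cKO and at 254 and 263 CPM in control, without overlap (0.14 ± 0.079). Uqcrfs1, the Rieske iron-sulphur protein, stood at 268 and 262 CPM in cKO and at 261.5 and 236 CPM in control, where the nearest values of the 2 groups nearly touched. The core proteins differed from each other in pattern: Uqcrc1 overlapped, at 327 and 336 CPM against 294 and 338 CPM, and Uqcrc2 did not, at 615 and 626 CPM against 585 and 547 CPM. Among the small subunits, Uqcr11 had the largest log2 fold change and the smallest p of the complex (0.38 ± 0.10, adjusted p = 0.428), with 90.2 and 83.2 CPM in cKO and 72.2 and 61.0 CPM in control. Uqcrb, also called the ubiquinone-binding protein, stood at 188 and 180 CPM in cKO and at 183 and 133 CPM in control, so that only control replicate 3 was low. The other small subunits Uqcrh, which is the hinge protein, Uqcrq and Uqcr10 had log2 fold changes of 0.27, 0.31 and 0.18, with both cKO libraries above both controls for Uqcrh and Uqcrq.

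Complex IV had a median log2 fold change of 0.28 over its 6 listed subunits, the largest of the complexes with all 4 libraries, and its summed level was 1443 and 1313 CPM in cKO against 1272 and 1036 CPM in control. Cox5a, a matrix-facing subunit, had the smallest value (0.13 ± 0.081), with 275 and 272 CPM in cKO and 259.8 and 240.4 CPM in control. Cox5b, which binds zinc, stood at 209 and 200.1 CPM in cKO and at 189.7 and 159 CPM in control. Cox7c, a small membrane subunit, had the largest log2 fold change of all members (0.39 ± 0.12, adjusted p = 0.535), and its libraries stood at 110.5 and 91.3 CPM in cKO and at 83.9 and 69.6 CPM in control. Cox6b1, which faces the intermembrane space, had 0.32 ± 0.10 (adjusted p = 0.545) and did not overlap either. Cox7b, the member on the X chromosome, stood at 260 CPM in the female cKO library and 229 CPM in the male one, and at 234 and 166 CPM in the female controls, and its groups overlapped. Cox6c overlapped too, with 270.4 and 238 CPM against 245.6 and 178 CPM. For all 6 subunits replicate 3 was below replicate 2 in both groups. Without control replicate 3 the order of the complexes turned, with medians of 0.13 for II, 0.11 for III, 0.092 for IV and 0.082 for V. Without control replicate 2 the median of complex IV was 0.47.

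ATP synthase had a median of 0.18 over the 14 tested members, with 7 of them free of overlap. Its catalytic head is made of alpha and beta subunits around a central stalk. Atp5b, the beta subunit that carries the catalytic sites, was the most abundant member per length of transcript, at a mean of 1635 CPM per kilobase over the 4 libraries. It stood at 3314 and 3198 CPM in cKO and at 3078 and 2939 CPM in control (0.11 ± 0.088, adjusted p = 0.832). Atp5a1, the alpha subunit (866 CPM per kilobase), stood at 2193 and 2085 CPM in cKO and at 2078 and 2206 CPM in control, and was the 1 tested member with a negative value (-0.0019 ± 0.09), which several alternative settings turned to between 0.0001 and 0.042. Atp5c1, the gamma subunit of the rotating stalk, stood at 497 and 483 CPM in cKO and at 492 and 393 CPM in control, an overlap in which only control replicate 3 was low. Atp5d and Atp5e, the delta and epsilon subunits at the foot of the stalk, overlapped as well, with log2 fold changes of 0.051 and 0.21.

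The membrane part and the stator of ATP synthase had values from 0.16 for Atp5j to 0.37 for Atp5k. Atp5k, the small e subunit of the membrane part, had the smallest p of all members (0.37 ± 0.091, adjusted p = 0.291), at 134.7 and 124.1 CPM in cKO and at 105.2 and 94.7 CPM in control. Atp5l, the g subunit, had 0.33 ± 0.18, with 151 and 141 CPM in cKO and with 142 and 90.9 CPM in control. The stator subunits Atp5f1, Atp5h, Atp5j and Atp5o had log2 fold changes of 0.19, 0.28, 0.16 and 0.18, and those of Atp5f1 and, by a narrow margin, Atp5h came without overlap. Atp5j2, the f subunit, had 0.24 ± 0.10 and did not overlap. The membrane ring of identical c subunits is encoded by 3 genes whose mature protein is known to be the same. Of these Atp5g3 stood at 706 and 684 CPM in cKO and at 644 and 580 CPM in control, and Atp5g1 at 213 and 209.5 CPM in cKO and at 190.3 and 178 CPM in control (0.20 ± 0.08, adjusted p = 0.689). Both were free of overlap. For Atp5g2 the table listed 0 in all 4 libraries, where a floor of 3 counts per library would be 0.152 to 0.35 CPM for counting error only.

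The 0 of Atp5g2 goes with counts under a copy of it. The table lists a 441-base transcript for this gene, and Gm10231, a processed pseudogene (GRCm38 chromosome 17, 5816200 to 5816640, minus strand), matched it over 441 bases at 100% identity. Gm10231 held 212 and 189 CPM in cKO and 177 and 157 CPM in control, without overlap (log2 fold change 0.26 ± 0.096, adjusted p = 0.638). Gm10175, a copy on chromosome 7 that also holds the whole coding sequence, was at 0. The last 75 coding bases, as many as a read has, are shown to make visible which of these genes a read can tell apart. Capitals mark bases that differ from Atp5g2, and the sequences come from GENCODE release 21 for mouse on GRCm38.
Atp5g2: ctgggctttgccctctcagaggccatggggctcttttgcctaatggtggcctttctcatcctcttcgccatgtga
Gm10231: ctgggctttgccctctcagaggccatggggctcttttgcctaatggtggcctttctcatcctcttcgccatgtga
Atp5g1: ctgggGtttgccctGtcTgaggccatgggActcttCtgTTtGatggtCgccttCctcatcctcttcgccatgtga
Atp5g3: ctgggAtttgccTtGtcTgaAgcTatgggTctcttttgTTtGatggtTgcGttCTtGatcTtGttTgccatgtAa
In this window Gm10231 had 0 differences, Atp5g1 had 10 and Atp5g3 had 19. Over the whole coding sequence, all 367 windows of read length in Atp5g2 were found unchanged in Gm10231 and 0 in Atp5g1 or Atp5g3. All 367 were found unchanged in Gm10175 as well. The 3 c subunit genes can therefore be told from each other in these reads, and Atp5g2 cannot be told from Gm10231 or Gm10175 by its coding sequence. Which of these loci gave the reads cannot be read from the table.

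Cytochrome c showed the same division on a larger scale. Cycs stood at 141 and 152 CPM in cKO and at 137 and 119 CPM in control, free of overlap (0.19 ± 0.095, adjusted p = 0.733). Its near-identical copies held 70% of the summed count, most of it under Gm10053 (chromosome 19, 24875686 to 24876631, plus strand, annotated as protein coding) with 278 and 277 CPM in cKO and 279 and 221 CPM in control. Gm10108, a processed pseudogene on chromosome 5, held 68.1 and 60.8 CPM in cKO and 65.5 and 49.7 CPM in control. The last 75 coding bases of Cycs were the same in both copies.
Cycs: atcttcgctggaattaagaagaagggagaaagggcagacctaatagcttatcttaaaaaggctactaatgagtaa
Gm10053: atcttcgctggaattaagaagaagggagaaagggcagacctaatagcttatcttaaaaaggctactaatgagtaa
Gm10108: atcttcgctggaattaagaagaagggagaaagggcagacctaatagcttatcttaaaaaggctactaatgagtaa
All 244 windows of read length in the Cycs coding sequence were found unchanged in Gm10053 and 200 of them in Gm10108. With its copies summed, cytochrome c stood at 487 and 490 CPM in cKO and at 481 and 390 CPM in control, and its log2 fold change was 0.17 ± 0.11.

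Of the other members, Atp5l shared 30.8% of its summed count with copies and Atp5g1 shared 6.2%, and for the remaining 8 members with a copy in the table the share was at most 0.19%. Summed with its copies, mainly Gm10221, Atp5l went from an overlapping to a separated pattern, at 218 and 199 CPM in cKO and 197 and 150 CPM in control (0.26 ± 0.13). Atp5h went the other way on summing, from 309.8 CPM in the lower cKO library and 309.2 CPM in the higher control to 310.03 and 310.06 CPM. No member was called after summing (35 tested, smallest adjusted p 0.287). Exons of 9 members also overlap a listed gene on the opposite strand, and nothing in the labels says that strand was used in counting. The overlapping gene with the most counts relative to the member's own was that of Atp5j, which shares 397 exonic bases with Gabpa, a gene with 6645 counts over the 4 libraries against 12200 for Atp5j.

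**Figure D2:**
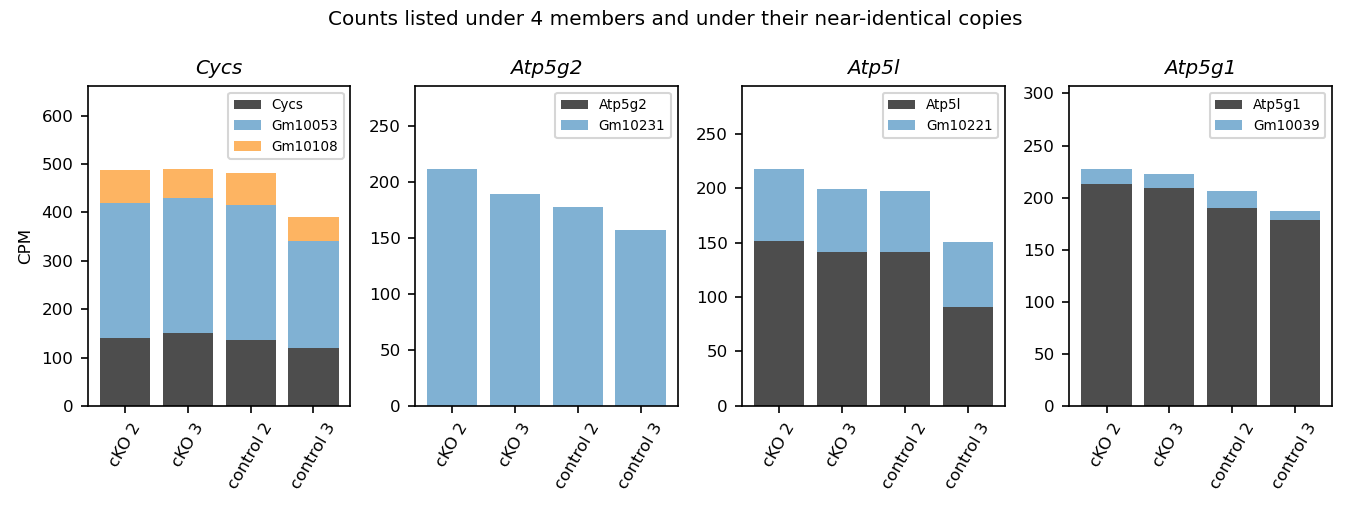
Bars give CPM in each library for Cycs, Atp5g2, Atp5l and Atp5g1 (dark grey), stacked with the copies that hold most of the shared counts (blue and orange), on a linear axis from 0 for each gene. All counts for the Atp5g2 sequence are listed under Gm10231, and copies hold 70% of the summed count for Cycs.

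The size of the members' differences varied with transcript length. For the 18 members with transcripts under 1000 bases the median log2 fold change was 0.25, and for the 16 longer ones it was 0.13. The same ordering ran through the whole table: among all genes tested the median log2 fold change was 0.20 for 181 genes with transcripts under 500 bases, 0.17 for 375 genes between 500 and 750 bases, and -0.05 for 2444 genes of 5000 bases or more. It also ran between the 2 controls, where control replicate 3 against control replicate 2 had a median of -0.26 under 500 bases and 0.038 at 5000 bases or more. Among all genes under 1000 bases, both cKO libraries stood above both controls for 38.1% and the log2 fold change was positive for 73%, and among the members of that length these counts were 11 and 18 of 18. Control replicate 3 lay below control replicate 2 for all 18 of these members and for 74.1% of all genes of that length. Among the 16 longer members both cKO libraries stood above both controls for 9, against 17.8% of all genes of 1000 bases or more.

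**Figure D3:**
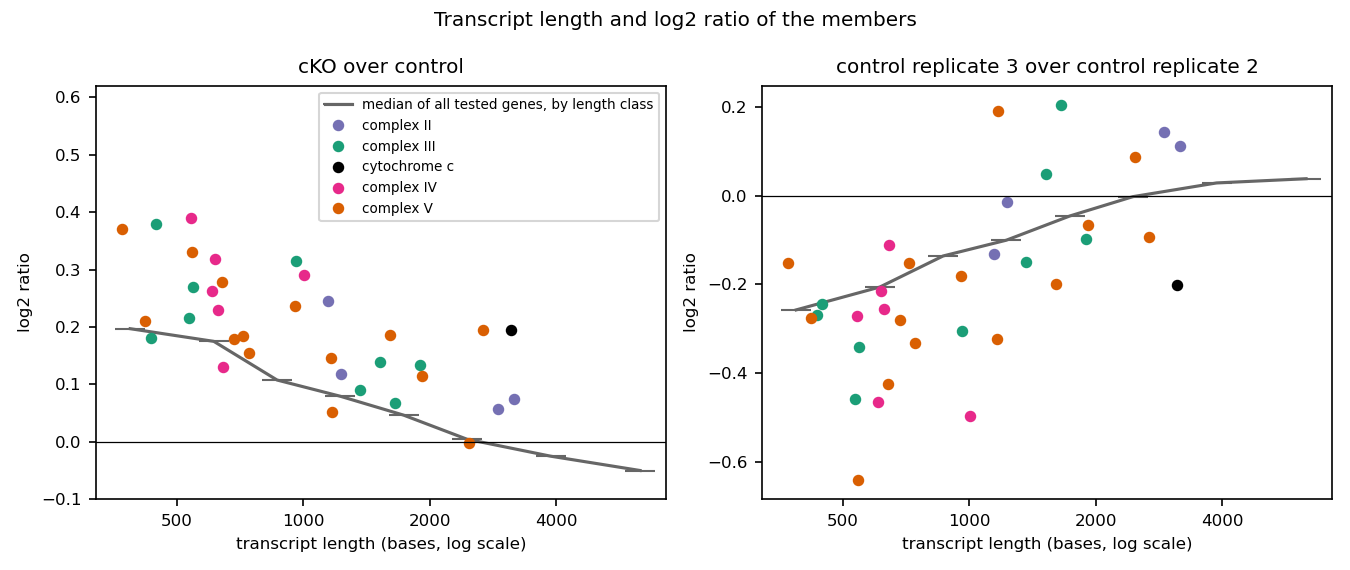
Members are plotted by transcript length (bases, log axis) against the log2 fold change of cKO over control (left) and against the log2 ratio of control replicate 3 to control replicate 2 (right), and the grey line joins the medians of all tested genes in 8 length classes. On the left the members under 1000 bases have a median of 0.25 and the longer ones 0.13, and on the right all 18 members under 1000 bases lie below 0.

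With each library's trend of expression on transcript length removed, an alternative chosen after seeing the data, the members' median log2 fold change was 0.086 and 29 of 34 values stayed positive. The medians by complex then stood at 0.077 for II, 0.078 for III, 0.12 for IV and 0.071 for V, where they had run from 0.096 to 0.28. Cox7c went from 0.39 to 0.21, Uqcr11 from 0.38 to 0.17, Atp5k from 0.37 to 0.14 and Cox6b1 from 0.32 to 0.15. For the 16 members of 1000 bases or more the median went from 0.13 to 0.08, and among them Sdhb went from 0.24 to 0.15 while Cycs stood at 0.21 and Atp5g1 at 0.20. Uqcr10, Cox5a, Atp5d and Atp5e turned to values between -0.044 and -0.0034. No member was called, and the smallest adjusted p was 0.716.

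**Figure D4:**
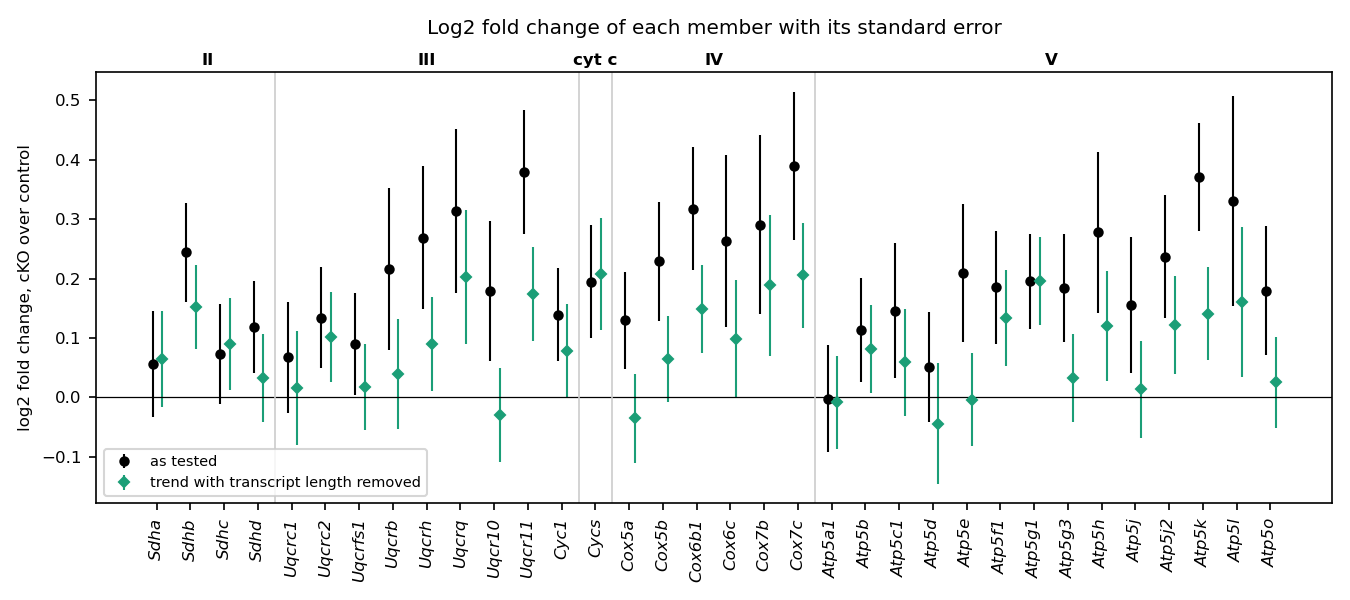
Points give the log2 fold change of cKO over control for each tested member with its standard error as a bar, as tested (black circles) and with each library's length trend removed (green diamonds), with members in columns grouped by complex. The median goes from 0.19 to 0.086, and the members of complexes III to V with short transcripts move most.

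Genes that work with these subunits showed small values as well, and none of them was called. The 6 subunits of complexes III, IV and V encoded in the mitochondrial genome were all positive, with a median of 0.10 that became -0.011 with 3 of 6 positive once the length trend was removed, and mt-Co2 (a catalytic subunit of complex IV) had the smallest p at 0.24 ± 0.13. Together these 6 summed to 60612 and 53291 CPM in cKO and 56444 and 46544 CPM in control, which overlap. Of 9 further nuclear subunits and partners of complexes IV and V, 8 were measured and all 8 were positive (median 0.24, or 0.085 with the length trend removed), and Cox6a1 had the smallest p, at 0.28 ± 0.089. Assembly factors, which build the complexes without staying in them, had medians of 0.23 for complex II (3 of 4 positive), 0.12 for complex III (5 of 6), 0.12 for complex IV (17 of 21) and 0.075 for complex V (4 of 4). With the length trend removed these medians were 0.19 (3 of 4), 0.035 (4 of 6), 0.067 (15 of 21) and 0.0045 (2 of 4). Those with the smallest p in each list were Sdhaf4 at 0.36 ± 0.16, Lyrm7 at 0.24 ± 0.18, Cox20 at 0.26 ± 0.10 and Fmc1 at 0.22 ± 0.17.

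Of 16 regulators of respiratory genes 12 were negative, with a median of -0.077, or -0.052 with the length trend removed. This list holds the nuclear factors Nrf1 and Gabpa, the mitochondrial transcription factor Tfam and the coactivator Ppargc1a, and none was called. Nrf1 stood at -0.11 and Gabpa at -0.029, each with both cKO libraries below both controls, as for 18.8% of all genes. Ppargc1a stood at 0.098 and Tfam at -0.006, both with overlap. Mxi1, a MYC antagonist, had the smallest p at -0.26 ± 0.097. Of 15 other mitochondrial proteins 13 were positive with a median of 0.076, or 0.060 with 11 positive once the length trend was removed. Timm23, a channel for protein import, had 0.38 ± 0.12 (adjusted p = 0.545), or 0.28 with the length trend removed. It stood at 113 and 112 CPM in cKO and at 75.1 and 97.8 CPM in control.

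Markers of the cell types that ventricles can hold were read in the same libraries. The 12 cardiomyocyte markers had a median of -0.019, with 6 positive and 6 negative. With the length trend removed the median was -0.035 and 2 were positive. All 9 endothelial and endocardial markers were negative (median -0.21, summed level 1378 and 1250 CPM in cKO and 1474 and 1542 CPM in control). The 3 measured smooth muscle markers were negative too (median -0.42, summed level 801 and 922 CPM in cKO and 1234 and 1233 CPM in control). Myh11, the other gene on the smooth muscle list, did not pass the filter on low counts, at 0.35 to 0.45 CPM over the libraries. Acta2 by contrast stood at 497 and 599 CPM in cKO and at 833 and 862 CPM in control. Which cells gave the counts of these 3 measured genes was not tested. Of 7 epicardial markers 6 were negative (median -0.39) and Krt19 fell, the 1 call among all the marker lists, against 0.365% of all genes called lower (-1.03 ± 0.16, adjusted p = 0.0347). All 10 erythroid markers were negative (median -0.24), and they summed to 2839 CPM in cKO replicate 2 against 5361 to 6867 CPM in the other libraries. The 7 cushion mesenchyme markers, 4 positive and 3 negative, had a median of 0.11, which is the value of Tbx20. They ran from -0.14 for Dcn to 0.69 for Twist1. Medians were -0.055 for 4 measured atrial markers and -0.03 for 5 immune markers. With the length trend removed no list's median changed sign, and they ran from -0.47 for smooth muscle to 0.17 for cushion mesenchyme. The atrial list summed to 4634 CPM in cKO replicate 2 against 2293 to 2905 CPM elsewhere. Most of that sum was Nppa, at 4176 CPM in cKO replicate 2 against 1847 to 2343 CPM elsewhere. Myl7 stood at 429 and 418 CPM in cKO and at 532 and 433 CPM in control. Sln, also on the atrial list, did not pass the filter, at 0.20 and 0.15 CPM in cKO and 0 CPM in both controls. No marker on any list was at 0 in all libraries. The part of these markers in the members' values was not tested.

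Promoters of the members were searched for letters that known regulators of respiratory and hypoxia genes bind, in the 250 bases before each RefSeq start (GRCm38.p6), on both strands and with overlaps between motifs allowed. Of 28 members that matched the RefSeq table, 6 held the NRF1 motif, GCGCA and GCGC with any base between them (19.4% of their 31 windows, against 3.7% of 32851 windows of all genes). The ETS family motif CCGGAAG, bound by GABPA, was in 8 members (25.8% against 6.9% of windows), the YY1 motif AAGATGGCG in 1 member (3.2% against 0.6%), and the hypoxia response core ACGTG in 10 members (32.3% against 16.6%). Stretches with an NRF1 motif that lies outside the annotated transcripts are shown for 3 members, with the motif in capitals.
Sdha promoter, chr13:74350304-74350363, minus strand: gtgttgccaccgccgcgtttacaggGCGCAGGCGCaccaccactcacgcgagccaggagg
Sdhd promoter, chr9:50603894-50603953, minus strand: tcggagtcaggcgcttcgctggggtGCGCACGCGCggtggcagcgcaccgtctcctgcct
Atp5h promoter, chr11:115420026-115420085, minus strand: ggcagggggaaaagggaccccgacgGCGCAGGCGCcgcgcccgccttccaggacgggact
The 3 genes differed in their values, with log2 fold changes of 0.056 for Sdha, 0.12 for Sdhd and 0.28 for Atp5h, and with their length trend removed of 0.065, 0.032 and 0.12. A match of letters is a description of the window and not evidence of binding. The windows of all genes include genes not expressed in these libraries, and no set matched in expression or base content was compared.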

How the data were processed

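Gene values in the table the authors deposited are expected counts, in which a read matching more than 1 gene is shared out, so 13.9% to 16.9% of values are not whole. RSEM 1.2.3, cutadapt 1.3, CASAVA 1.8.2 and the build GRCm38 are named per the submitters' processing notes. For the annotation and the settings of these tools the entry is: not given in the sources used here. Per the labels' protocols, polyadenylated RNA (500 ng) was sequenced as single reads of 75 bases. Symbols, positions and transcript lengths came from GENCODE release 21 for mouse, which named 36345 of 38293 genes; transcript length is the median over a gene's principal transcripts named in the table, or over all those named where none is principal.

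Expected counts were rounded. edgeR 4.0.16 (R 4.3.3) kept 13711 genes by its filter by group (minimum count 10, minimum total 15) and scaled libraries by TMM. It compared the groups by its quasi-likelihood test, with Benjamini-Hochberg adjustment over all genes and a threshold of 0.05. Each gene had 2 residual degrees of freedom of its own, to which the test adds information shared over all genes tested. The p-values therefore rest on more than these 2. SE, the standard error, was obtained from the log2 fold change and the square root of F, as their quotient. P-values set the difference between groups against the spread between embryos within groups, estimated for each gene with help from all genes. Copies were found with BLAST 2.17.0 (at least 95% identity over at least 200 bases, same strand). Both replicate pairs differed beyond counting noise, with chi-square values per degree of freedom of 13.1 for cKO and 5.85 for control. The fits were tested on simulated counts. Members, gene lists and the rule for named genes were chosen with earlier results of these data known. The rule gave library values to members with set roles and to those with the smallest p or the most extreme value of their complex; other lists are given by counts and the gene with the smallest p. Alternatives were DESeq2 1.42.0 (size factors, and its test), upper-quartile scaling, other filters, limma-voom (limma 3.58.1), the replicate block, each library left out, thinning cKO replicate 3 to a total of 9176874, leaving out mitochondrial genome and haemoglobin genes, summing copies and, added after the data were seen, removing a loess trend (span 0.3) on transcript length or GC content.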

Additional observations from a re-analysis of the deposited data

How the results depend on the processing

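No member was called under any of the 16 alternatives, and the smallest adjusted p over them was 0.0518, without control replicate 2. Of 544 member values under these alternatives 530 kept their sign. Leaving out 1 library at a time gave 39 to 141 called genes in all, where 70 were called with all 4 libraries, with 141 without cKO replicate 2 and 39 without control replicate 3. The medians by complex then ran from 0.0727 to 0.1311 for II, from 0.1091 to 0.3205 for III, from 0.0915 to 0.4716 for IV and from 0.0819 to 0.3216 for V. A group left with 1 library was assumed to vary like the other group. With the length trend removed the median of complex V was 0.0705, and Uqcr10 (-0.0299), Cox5a (-0.0349), Atp5d (-0.044) and Atp5e (-0.0034) turned sign. Atp5a1 turned to 0.0001 in limma-voom, 0.0042 with no filter, 0.0196 with upper-quartile scaling, 0.0339 without cKO replicate 3 and 0.0424 without control replicate 3. Without control replicate 2, Sdha (-0.0139), Uqcrc1 (-0.031) and Atp5d (-0.04) turned sign, and without control replicate 3, Atp5c1 (-0.0062) and Atp5j (-0.0003) did; with the other control left out instead these were 0.1308, 0.1744, 0.1505, 0.3173 and 0.3301. The cause was not tested.

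The replicate numbers are tied to no shared source in the labels, and deviations of same-numbered libraries correlated at 0.106. With the replicate number as a block 75 genes were called and 0 members (smallest adjusted p 0.139), 15 members were higher at an unadjusted p under 0.05 against 4.27% of all genes, and the medians by complex were 0.0963, 0.1842, 0.2944 and 0.1872. Depth was lowest in the controls, and the members' standard errors ran from 0.077 to 0.18.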
